A study of Mus musculus with 4 samples.

Results

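The genes described here are the Wnt ligands, their receptors, their secreted antagonists and the cytoplasmic and membrane adaptors that pass the signal on, measured in mouse hippocampus. They were chosen by name, from the symbols Wnt, Fzd, Lrp5, Lrp6, Sfrp, Dkk, Dvl, Axin, Vangl and Celsr, with earlier results of these data known. Of the 23466 gene symbols in the deposited table, 49 fitted. RNA was sequenced from frozen hippocampus at postnatal day 30, in 2 conditional mutants of Atp6ap2, numbered 38 and 39, and in 2 wild-type samples, numbered 11 and 73, all on the C57BL/6N strain. The mutants carried a Camk2a-Cre driver, which is active in excitatory neurons of the forebrain, so glia, vessels, choroid plexus and interneurons in the same tissue were not its targets. Their titles read ko and their condition field reads conditional het, and the labels of the wild-type samples name no allele or Cre.

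Wnt proteins are secreted, lipid-carrying signals that bind a Frizzled receptor together with the co-receptors Lrp5 and Lrp6. In the canonical branch, Dishevelled and Axin are then drawn to the membrane, beta-catenin escapes destruction, and TCF/LEF factors switch on target genes, among them Axin2, which feeds back on the pathway. In the planar polarity branch, Frizzled acts with Vangl and Celsr proteins to orient cells and guide axons. In frog embryos and cultured human cells, the Atp6ap2 protein has been described as an adaptor that links Lrp6 to the vacuolar proton pump, which is the tie between the targeted gene and these genes. In the hippocampus, Wnt signals are known for roles in synapse formation, in the birth of granule neurons and in vessel growth.

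Values are scaled read equivalents, which are aligned bases per transcript divided by 42, the bases of 1 read, on a scale the authors set for each library. Levels of different genes are compared only per kb of transcript. Before scaling, the libraries held between 10023033 (wild-type 73) and 18339838 (wild-type 11) read equivalents over genes. Atp6ap2 itself had 2551 and 2522 in mutants 38 and 39, against 2312 and 2637 in wild-types 11 and 73, so its level over the whole transcript did not set the groups apart. Which exons the allele removes is not given in the sources used here. Markers of hippocampal pyramidal and granule neurons were read in every library (12 of 12), with a summed level of 51976 to 57627 in mutants and 54146 to 61029.9 in wild-types. Both mutants lay below both wild-types for 4 of these 12, or 33.3%, and above both for 0, against 16.5% and 16.8% of all genes. The libraries also differed in tissue content. All 19 choroid plexus markers were higher in mutant 38 and wild-type 11 than in mutant 39 and wild-type 73, and none was at 0, with summed levels of 127929 in mutant 38 and 8088 in mutant 39, against 76844 in wild-type 11 and 7895 in wild-type 73. Of 11 thalamus markers, 9 were highest in mutant 38, with a summed level of 6831 there and 3374 in mutant 39, against 3279 and 3267 in wild-types 11 and 73. Both mutants lay above both wild-types for 4 of these 11, or 36.4%, and below both for 0, against 16.8% and 16.5% of all genes. Of 12 oligodendrocyte markers, 11, or 91.7%, had both mutants above both wild-types, against 16.8% of all genes. Their summed levels were 99918 to 112948 in mutants and 66182 to 91869.6 in wild-types. Mutant 38 was the highest library for 12 of 12 oligodendrocyte and 19 of 19 choroid plexus markers, against 26.5% of all genes. The part of these markers in the values below was not tested except where a value is given. In bulk tissue, fewer cells of a type and less RNA per cell cannot be told apart.

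Signal was found for 48 of the 49 genes, and 47 reached 1 read equivalent in at least 2 libraries and were tested. The 2 left out were Dkk1, an antagonist that binds Lrp6, which was listed at 0 in all 4 libraries, and Wnt3a, a ligand of the embryonic cortical hem, which had 0.903 in mutant 39, 2.51 in wild-type 11 and was listed at 0 in the other libraries. Per kb of transcript, the most abundant were Dkk3, with 1866 ± 411 in mutants and 1609.5 ± 67.1 in wild-types, and Dvl1, with 486 ± 48.8 in mutants and 506 ± 21.6 in wild-types (SD, n = 2 each). Celsr2, Fzd3, Wnt7b and Lrp6 followed, with means over the 4 libraries of 405, 285, 264 and 259 read equivalents per kb. Among ligands, receptors, co-receptors, antagonists and Dishevelled genes, the leading gene had more than 3 times the next one per kb, while Axin1 and Axin2 were closer, with means of 135 and 92.4, as were Celsr2 and Celsr3, with 405 and 179.

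**Figure D1:**
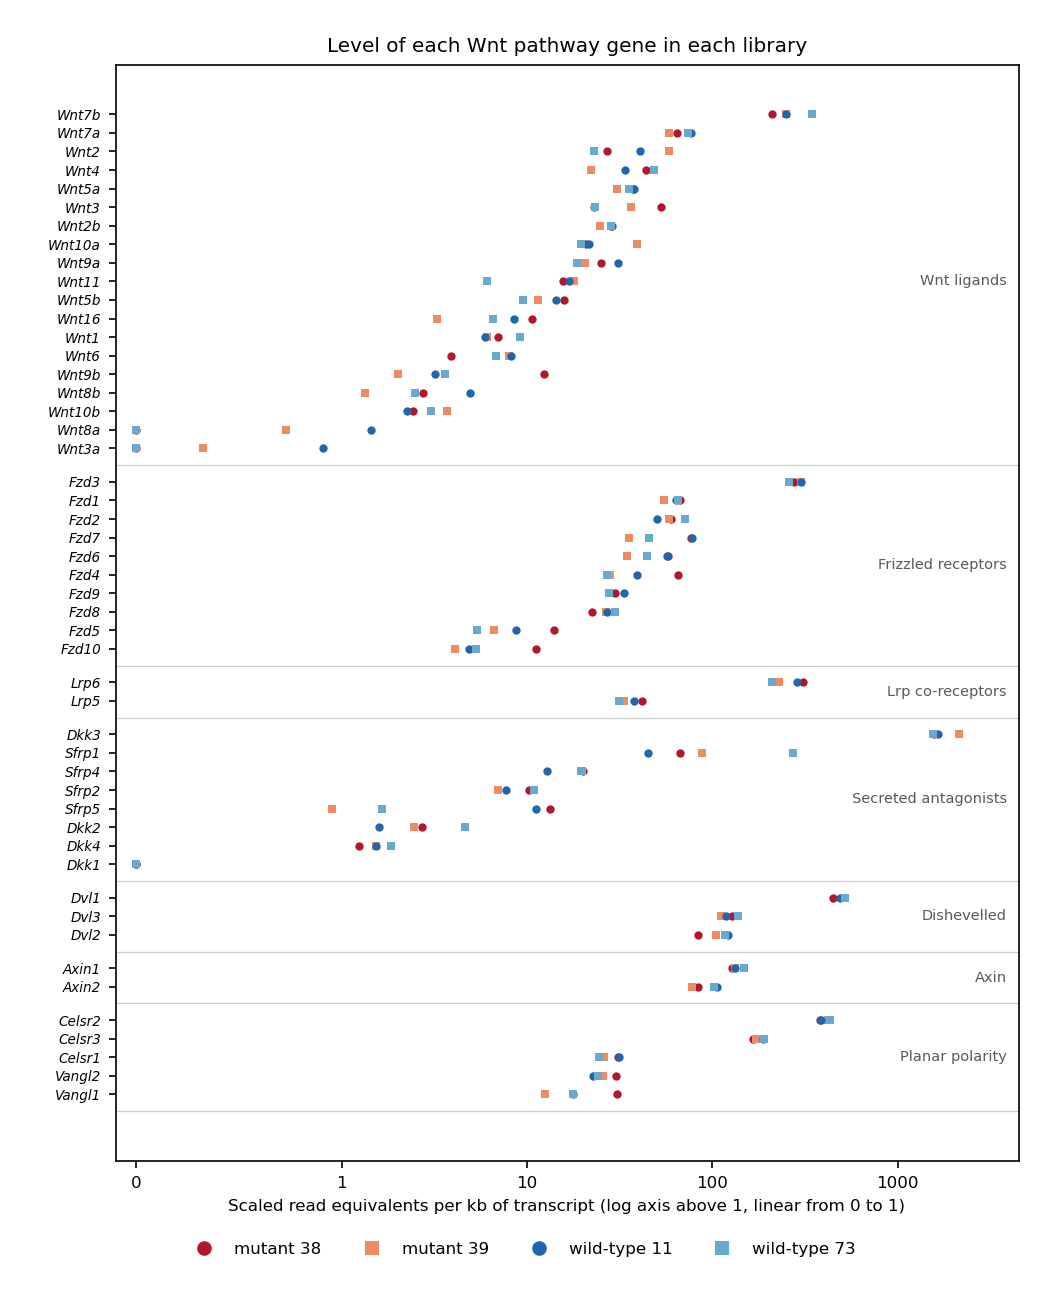
Level of each of the 49 genes per kb of transcript in mutants 38 and 39 and wild-types 11 and 73, grouped by role; each symbol is 1 library and the horizontal axis is logarithmic above 1 read equivalent per kb. Dkk3 lies highest, at 1866 per kb on average in mutants and 1609.5 in wild-types, and Dkk1 lies at 0 in every library.

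Between mutant and wild-type, 0 of the 47 tested genes passed a limma adjusted p of 0.05 over all 18127 genes tested, where the background was 0.00552% of genes. At an unadjusted limma p below 0.05 there were 2, Wnt3 in the higher direction and Axin2 in the lower, or 4.26% of the 47, against 3.94% of all genes (2.18% higher and 1.75% lower). Both mutants lay above both wild-types for 3 genes, or 6.38%, against 16.8% of all genes, and below both for 5, or 10.6%, against 16.5% of all genes. The median log2 fold change of the 47 was -0.083, with 18 above 0 and 29 below, beside a median of 0.0067 over all genes tested. The counts were thus near or under the background, and the values below describe single genes. Errors of log2 fold changes here and below are standard errors of the limma fit with 2 libraries per group, intervals are at 95%, and the limma adjusted p of every tested member was 0.989 or more. With 2 against 2 libraries, an exact permutation test cannot give a two-sided p below 0.333.

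**Figure D2:**
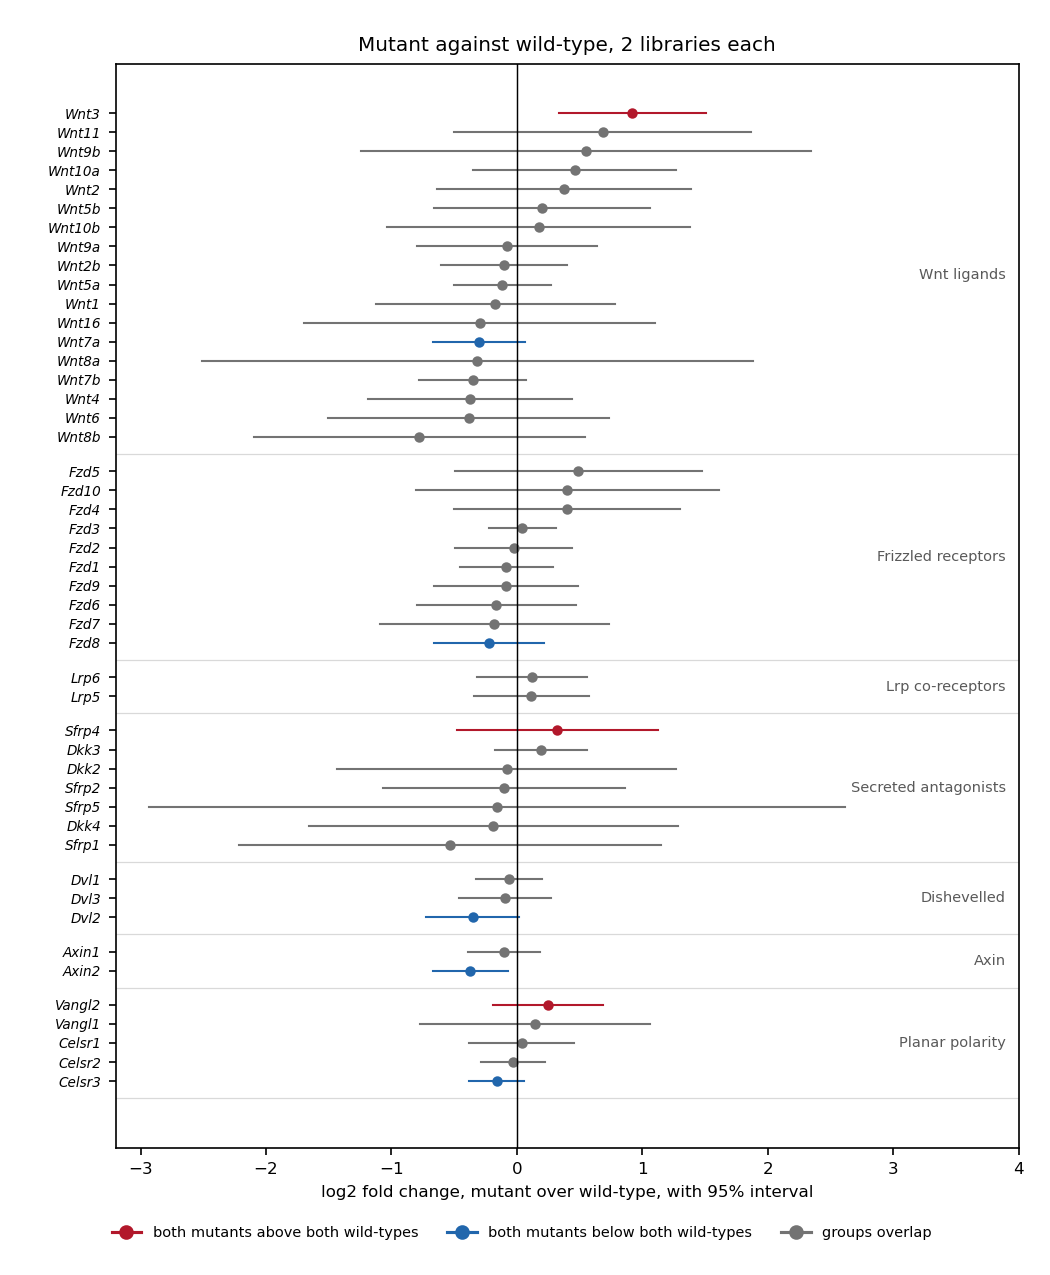
The log2 fold change of mutant over wild-type for the 47 tested genes, by role, with the 95% interval of the limma fit; colour shows whether both mutants lay above or below both wild-types. The intervals of Wnt3 (0.33 to 1.51) and Axin2 (-0.67 to -0.074) lie on 1 side of 0 and the others cross it.

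The promoters of Wnt3 and Axin2 are shown because these genes had the smallest p-values among the members. Each line gives the 250 bases before the RefSeq start in the build GRCm38.p6, on the plus strand, at chr11:103773925-103774174 for Wnt3 and chr11:108920099-108920348 for Axin2, and capitals mark the letters CAAAG or CTTTG, the core that TCF/LEF factors read on either strand.
Wnt3: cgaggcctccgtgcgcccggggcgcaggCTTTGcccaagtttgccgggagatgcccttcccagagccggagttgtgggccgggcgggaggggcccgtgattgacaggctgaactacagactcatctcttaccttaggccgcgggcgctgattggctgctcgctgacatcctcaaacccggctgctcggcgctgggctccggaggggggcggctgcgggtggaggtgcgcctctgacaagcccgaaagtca
Axin2: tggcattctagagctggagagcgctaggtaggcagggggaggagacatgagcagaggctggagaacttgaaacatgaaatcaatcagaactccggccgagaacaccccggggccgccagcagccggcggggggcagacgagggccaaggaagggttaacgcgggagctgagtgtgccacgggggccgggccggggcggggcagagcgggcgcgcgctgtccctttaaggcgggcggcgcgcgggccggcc
The Wnt3 window held the core once, starting 222 bases before the start, and the Axin2 window did not hold it. Among the 32 members with such a window in the RefSeq table, 12 held the core, or 37.5%, against 52.2% of 27025 genes. The longer letters ATCAAAG or TTCAAAG, which contain that core, searched on both strands, stood in the windows of Wnt11, Wnt5b and Dkk1, or 9.38% of members, against 8.63% of genes. These matches describe letters in 1 window and are not sites.

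Wnt3, the ligand with the largest fold change among the members, had 163 read equivalents in mutant 38 and 112 in mutant 39, against 70.5 in wild-type 11 and 71.3 in wild-type 73. Wnt3 is made by hippocampal astrocytes and is known to promote the birth of granule neurons. The groups did not overlap, the wild-types were nearly equal, and mutant 38 stood highest. The mutants were higher by 0.92 ± 0.25 on the log2 scale, with a limma adjusted p of 0.989. These levels rest on 45.7 to 193 read equivalents per library before scaling. Without mutant 38, the library highest in thalamus markers, it was 0.65, and without mutant 39 it was 1.19. Between the libraries low in choroid plexus markers, mutant 39 and wild-type 73, the log2 difference was 0.64, and between those high in them, mutant 38 and wild-type 11, it was 1.20. Both mutants also lay above both wild-types for 4 of the 11 thalamus markers, or 36.4%, against 16.8% of all genes. The same order held for 11 of 12 oligodendrocyte markers, or 91.7%, and 3 of 8 microglia markers, or 37.5%. It held for 0 of 12 hippocampal neuron markers. The part of thalamic tissue or of any of these cell types in the Wnt3 values was not tested.

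Wnt7b and Wnt7a, close paralogs that guide vessels into the brain and, for Wnt7a, promote synapses, were the most abundant ligands per kb. Wnt7b had 529.5 and 633 read equivalents in mutants 38 and 39, against 627 and 872 in wild-types 11 and 73. Mutant 39 and wild-type 11 were nearly equal, so the groups overlapped, and the log2 fold change was -0.35 ± 0.18 (limma adjusted p = 0.989), moving to -0.59 without wild-type 11, -0.22 without mutant 38 and -0.11 without wild-type 73. Wnt7a had 204 and 185 in mutants 38 and 39, against 245 and 235 in wild-types 11 and 73. Both mutants lay below both wild-types, with a log2 fold change of -0.30 ± 0.15 (limma adjusted p = 0.989). The exons of Wnt7b overlap those of the antisense gene AU022754 by 324 bases, and the strand setting of the counting is not given in the sources used here, so its reads may include that gene's.

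Wnt2, Wnt4, Wnt5a, Wnt2b, Wnt10a and Wnt9a lay in a middle range of 23.7 to 37.3 read equivalents per kb on average, as did Wnt3 at 33.9. Wnt5a, the ligand best known for signalling without beta-catenin, had 262 and 215 read equivalents in mutants 38 and 39, against 265 and 250.4 in wild-types 11 and 73, within 1.23-fold of each other. Wnt2 was highest in mutant 39 (132) and at 60.8 in mutant 38, against 91.8 and 51.8 in wild-types 11 and 73, so that the mutants enclosed the wild-type 11 value and the groups overlapped. Wnt10a showed the same library highest, with 96.4 in mutant 39 and 51.4 in mutant 38, against 53.5 and 48.4 in wild-types 11 and 73. Wnt4 ran from 92.9 in mutant 39 to 184 in mutant 38, against 141 in wild-type 11 and 204 in wild-type 73, and these groups overlapped too. Wnt2b, a ligand of the embryonic cortical hem, had 94.5 and 82.0 in mutants 38 and 39, against 95.3 and 93.7 in wild-types 11 and 73, and mutant 39 alone was lower. Wnt9a, known from joint and liver development, had 83.0 and 67.9 in mutants 38 and 39, against 102 and 61.6 in wild-types 11 and 73, so that the wild-types enclosed the mutants.

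The remaining ligands were scarce. Wnt11 and Wnt5b averaged 14.1 and 12.7 read equivalents per kb, Wnt16, Wnt1, Wnt6 and Wnt9b between 5.27 and 7.25, and Wnt8b and Wnt10b 2.88 and 2.85. Wnt8b, a marker of the cortical hem in the embryo, had 9.29 and 4.51 read equivalents in mutants 38 and 39, against 16.7 and 8.40 in wild-types 11 and 73. Mutant 39 and wild-type 73 were the lowest, at 5 and 5.38 read equivalents before scaling, and the groups overlapped. Wnt9b, which is known from kidney development, had 55.7 in mutant 38 and 9.03 in mutant 39, against 14.3 and 16.2 in wild-types 11 and 73, a single high library. Wnt11, a ligand known for signalling without beta-catenin, had 28.0 and 32.1 in mutants 38 and 39, against 30.3 and 10.9 in wild-types 11 and 73. Wild-type 73 alone was low, and its value rested on 6.98 read equivalents before scaling. Wnt8a was listed at 0 in mutant 38 and wild-type 73 and had 1.27 in mutant 39, against 2.51 in wild-type 11. Intervals were wide for such ligands: the 95% interval of Wnt8a ran from -2.51 to 1.89 and that of Wnt8b from -2.09 to 0.54 on the log2 scale.

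Among the 10 Frizzled receptors, 0 passed and 0 had an unadjusted limma p below 0.05, while 1, Fzd8, had both mutants below both wild-types and 0 had both above, beside 16.5% and 16.8% of all genes. Fzd3, which guides axons together with Celsr3, was the most abundant, with 3521 and 3832 read equivalents in mutants 38 and 39, against 3844 and 3298 in wild-types 11 and 73. The mutants lay between the wild-types, and the log2 fold change was 0.045 ± 0.11 (interval -0.22 to 0.31; limma adjusted p = 0.990). Fzd8, a receptor of canonical signals, had 134 and 159 in mutants 38 and 39, against 161 and 179 in wild-types 11 and 73. Mutant 39 and wild-type 11 lay close together, and the log2 fold change was -0.22 ± 0.18 (limma adjusted p = 0.989), running from -0.34 without mutant 39 to -0.10 without mutant 38 and -0.15 without wild-type 73. Fzd1 and Fzd2, close relatives of Fzd7, came next per kb after Fzd3, with means of 62.7 and 59.8 read equivalents. Fzd1 had 281 and 231 in mutants 38 and 39, against 266 and 274 in wild-types 11 and 73. Fzd2 had 218 and 213 in mutants 38 and 39, against 185 and 259 in wild-types 11 and 73. In both genes the groups overlapped, and wild-type 73 was the highest library for Fzd2. Fzd9 and Fzd10 had means of 29.6 and 6.35 per kb.

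For Fzd4, Fzd5, Fzd6, Fzd7 and Fzd9, the libraries rich in choroid plexus markers were the higher ones in each group. Fzd4, the receptor of Norrin that maintains brain vessels, had 440.4 in mutant 38 and 189 in mutant 39, against 263 in wild-type 11 and 183 in wild-type 73. Its log2 fold change was 0.40 ± 0.38 with all libraries (limma adjusted p = 0.989) and -0.21 without mutant 38, so the sign rested on that library. Fzd7, a receptor of canonical signals in stem cells, had 348 and 162 in mutants 38 and 39, against 350.1 and 206 in wild-types 11 and 73, a larger gap inside each group than between the groups. Fzd6, a receptor known from hair patterning through planar polarity, had 236 and 142 in mutants 38 and 39, against 233 and 181 in wild-types 11 and 73, in the same order. Fzd5, known from eye and gut development, had 96.0 and 46.0 in mutants 38 and 39, against 60.1 and 36.9 in wild-types 11 and 73, with a log2 fold change of 0.49 ± 0.42 (limma adjusted p = 0.989) that was -0.033 without mutant 38. Fzd10 was high in mutant 38 alone, at 36.2 against 13.3 in mutant 39, and at 15.8 and 17.2 in wild-types 11 and 73.

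Lrp6, the co-receptor that the Atp6ap2 protein is described to bind, had 2899.6 and 2158 read equivalents in mutants 38 and 39, against 2669.5 and 1979.7 in wild-types 11 and 73. The groups overlapped, and mutant 38 and wild-type 11 were the higher libraries. Its log2 fold change was 0.12 ± 0.19 (interval -0.32 to 0.56; limma adjusted p = 0.989). It was -0.091 without mutant 38 and -0.094 without wild-type 73, so its sign changed with single libraries. Between mutant 39 and wild-type 73 the log2 difference was 0.12, and between mutant 38 and wild-type 11 it was 0.12. Lrp5, the related co-receptor, was less abundant per kb, with 37.6 ± 6.11 in mutants and 34.6 ± 4.46 in wild-types, where Lrp6 had 269.9 ± 56.0 in mutants and 248 ± 52.1 in wild-types (SD, n = 2 each). Lrp5 had 216 and 172 read equivalents in mutants 38 and 39, against 195 and 162 in wild-types 11 and 73, the same order of libraries as Lrp6.

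Of the 7 secreted antagonists tested, 0 passed, 0 had an unadjusted limma p below 0.05, and Sfrp4 alone had groups that did not overlap, with both mutants higher, an order that 16.8% of all genes had (16.5% had the reverse). Dkk3, the most abundant, is a divergent Dickkopf made by neurons. It had 5292 read equivalents in mutant 38 and 7244 in mutant 39, against 5566 and 5247 in wild-types 11 and 73. Mutant 39 alone stood out, and the log2 fold change of 0.20 ± 0.15 (limma adjusted p = 0.989) was -0.030 without it. Sfrp4, which binds Wnt proteins outside the cell, had 35.2 and 34.9 in mutants 38 and 39, against 22.5 and 34.4 in wild-types 11 and 73. Wild-type 73 was within 1 read equivalent of the mutants, so the groups were barely apart, and the log2 fold change was 0.32 ± 0.34 (limma adjusted p = 0.989), 0.027 without wild-type 11 and 0.62 without wild-type 73.

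Sfrp1, another secreted antagonist that binds Wnt proteins, differed most between the wild-types on the log2 scale after adding 1, at -2.59 for wild-type 11 minus wild-type 73. It had 291 and 386 read equivalents in mutants 38 and 39, against 198 in wild-type 11 and 1192 in wild-type 73. The wild-types enclosed both mutants, with a 6.03-fold range over the libraries. With all 4 libraries the log2 fold change was -0.53 ± 0.71 (limma adjusted p = 0.989). Without wild-type 11 it was -1.83 with a limma adjusted p of 0.0176, which passed, as did 37 of the 17822 genes tested in that setting, and without wild-type 73 it was 0.76, so both its sign and its call rested on which wild-type was kept. Sfrp5, a close relative, had 25.3 in mutant 38 and 1.81 in mutant 39, against 21.3 in wild-type 11 and 3.12 in wild-type 73. In both groups the library rich in choroid plexus markers was the higher one, and the low value rested on 2 reads in each of mutant 39 and wild-type 73. Dkk2, Dkk4 and Sfrp2 were scarce, with means of 2.84, 1.53 and 8.97 read equivalents per kb.

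Axin2, the scaffold of the beta-catenin destruction complex that is itself a target of the pathway, was lower in both mutants. It had 356 and 330.3 read equivalents in mutants 38 and 39, against 451 and 437 in wild-types 11 and 73. The gap between the groups was wider than the gap inside either group. On the log2 scale the difference was -0.37 ± 0.13 (interval -0.67 to -0.074), with a limma adjusted p of 0.989, so it did not pass. Leaving out 1 library at a time gave -0.43 to -0.32. Between mutant 39 and wild-type 73 the log2 difference was -0.40, and between mutant 38 and wild-type 11 it was -0.34. Its exons overlap the antisense gene Gm11670 by 209 bases. Axin1, the constitutive scaffold, had 482 and 500.4 in mutants 38 and 39, against 499 and 558 in wild-types 11 and 73, where mutant 39 and wild-type 11 nearly coincided, at a log2 fold change of -0.10 ± 0.12 (limma adjusted p = 0.989). With 1 library left out it ran from -0.18 without wild-type 11 to -0.024 without wild-type 73. The difference between the fold changes of Axin1 and Axin2 was not tested.

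Dishevelled proteins carry the signal from Frizzled to Axin. Dvl2 had 248 and 309.5 read equivalents in mutants 38 and 39, against 361 and 347 in wild-types 11 and 73. Both mutants were lower, mutant 38 the more so, and the log2 fold change was -0.35 ± 0.16 (limma adjusted p = 0.989). It was -0.19 without mutant 38 and -0.51 without mutant 39. Exons of Dvl2 share 1151 bases with Acadvl, a gene on the opposite strand, so reads of Acadvl may be among them if strand was not used. Such antisense overlap also touches Fzd5 (1233 bases), Wnt11 (364), Wnt5a (358), Sfrp2 (347), Fzd6 (152), Dvl1 (36) and Vangl1 (8). Dvl1, the most abundant of the family, had 1515 and 1746 in mutants 38 and 39, against 1649 and 1752 in wild-types 11 and 73, with a log2 fold change of -0.063 ± 0.11 (interval -0.32 to 0.20; limma adjusted p = 0.989). Dvl3 had 324 and 280.2 in mutants 38 and 39, against 298 and 348 in wild-types 11 and 73, with a log2 fold change of -0.096 ± 0.15 (limma adjusted p = 0.989). For Dvl1 and Dvl3 the groups overlapped.

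The planar polarity genes comprised the seven-pass cadherins Celsr1, Celsr2 and Celsr3 and the membrane proteins Vangl1 and Vangl2. Celsr3, needed for axon tracts of the forebrain, had 1927 and 1982 read equivalents in mutants 38 and 39, against 2180.2 and 2191 in wild-types 11 and 73. Both mutants were lower by a small margin, with a log2 fold change of -0.16 ± 0.092 (interval -0.38 to 0.056; limma adjusted p = 0.989). Celsr2, which acts in the cilia of ependymal cells, had 4018 and 4467 in mutants 38 and 39, against 4092 and 4573 in wild-types 11 and 73. The log2 fold change came to -0.030 ± 0.11 (limma adjusted p = 0.993), and the groups overlapped. Vangl2 had 172 and 147 in mutants 38 and 39, against 129.6 and 137 in wild-types 11 and 73, both mutants higher, with a log2 fold change of 0.25 ± 0.18 (limma adjusted p = 0.989) that was 0.14 without mutant 38. Vangl1, its paralog, had 199 in mutant 38 and 81.7 in mutant 39, on either side of 115 and 115 in wild-types 11 and 73. Its log2 fold change of 0.14 ± 0.39 (limma adjusted p = 0.991) was -0.49 without mutant 38. Celsr1 had 339 and 283 in mutants 38 and 39, against 341 and 266 in wild-types 11 and 73, with mutant 38 and wild-type 11 nearly equal and above the other two.

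**Figure D3:**
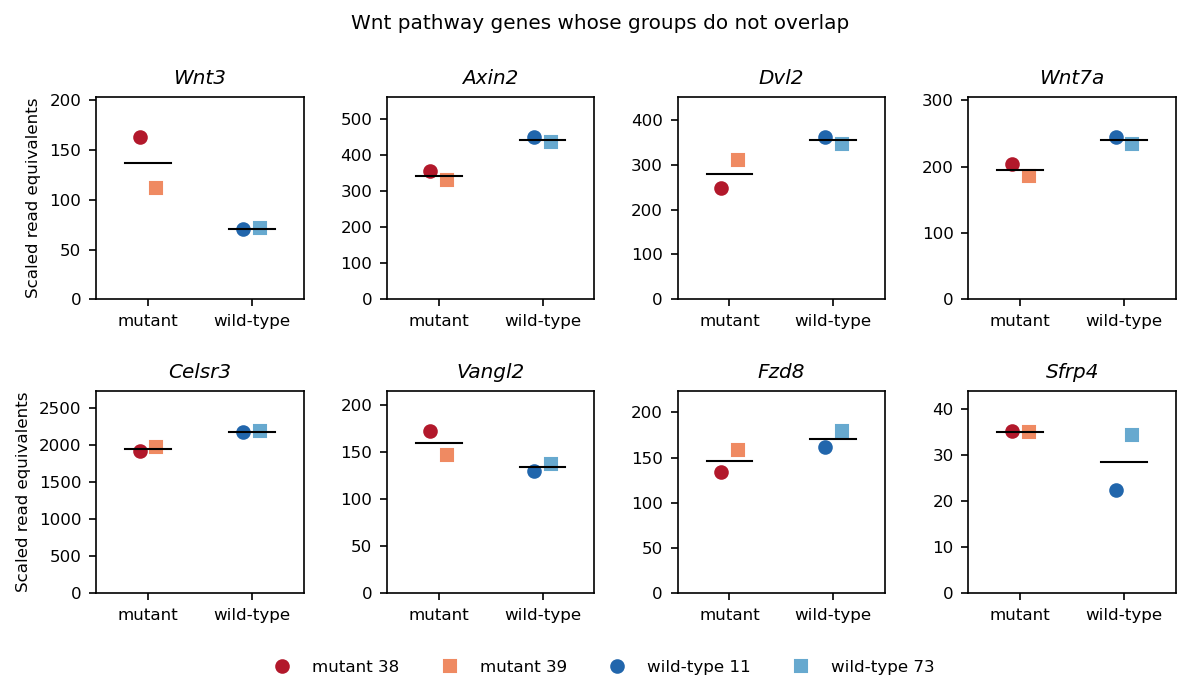
Scaled read equivalents of the 8 tested genes for which both mutants lay on 1 side of both wild-types, with mutants on the left of each panel, wild-types on the right, 1 symbol per library and a line at the group mean. Wnt3 has the largest log2 fold change of the 8, at 163 and 112 in mutants against 70.5 and 71.3 in wild-types, and the Sfrp4 groups nearly touch.

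Among 96 other genes of the pathway, 0 passed the limma adjusted p of 0.05. Both mutants lay above both wild-types for 16 of them, or 16.7%, and below both for 17, or 17.7%, against the 16.8% and 16.5% of all genes. At an unadjusted limma p below 0.05 there were 5, or 5.21%, against 3.94% of all genes, and all were in the lower direction, which 1.75% of all genes had. Their median log2 fold change was -0.010, beside 0.0067 over all genes. Bcl9l, a coactivator of beta-catenin, had 314 and 290.2 read equivalents in mutants 38 and 39, against 428 and 445 in wild-types 11 and 73. The difference was -0.53 ± 0.13 on the log2 scale (limma adjusted p = 0.940), and leaving out 1 library at a time gave -0.59 to -0.47. Frzb, a secreted antagonist of the Sfrp family, had 338 and 274 in mutants 38 and 39, against 428 and 438 in wild-types 11 and 73, with a log2 fold change of -0.51 ± 0.15 (limma adjusted p = 0.989). Rspo3, a secreted protein that heightens Wnt signals, had 159 and 185 in mutants 38 and 39, against 216 and 304 in wild-types 11 and 73, with a log2 fold change of -0.58 ± 0.21 (limma adjusted p = 0.989), which was -0.82 without wild-type 11 and -0.33 without wild-type 73. For these genes both mutants lay below both wild-types.

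Further genes of the same list had smaller differences. Jun, also an early response gene, had 1313 and 1247 in mutants 38 and 39, against 1450.2 and 1765 in wild-types 11 and 73 (log2 fold change -0.32 ± 0.12, and -0.18 without wild-type 73). Csnk1g1, a kinase that phosphorylates Lrp6, had 821 and 771 in mutants 38 and 39, against 971 and 922 in wild-types 11 and 73 (log2 fold change -0.25 ± 0.11). Both mutants again lay below both wild-types in these genes, and so they did in Pygo1 and Cd44. Pygo1, a partner of Bcl9 proteins, had 369.9 and 406 in mutants 38 and 39, against 447 and 534 in wild-types 11 and 73 (log2 fold change -0.33 ± 0.14, and -0.21 without wild-type 73). Cd44, a surface protein and target of the pathway, had 90.2 and 82.9 in mutants 38 and 39, against 134 and 111 in wild-types 11 and 73 (log2 fold change -0.49 ± 0.21). Of the 15 listed target genes, 3 (Myc, Id2 and Runx1) had both mutants above both wild-types, or 20%, against 16.8% of all genes. Another 4, with Jun and Cd44 among them, had both below, or 26.7%, against 16.5% of all genes, and the others overlapped. In the other direction, Amer1, a partner of Axin and the APC protein, had 360.0 and 346 read equivalents in mutants 38 and 39, against 297 and 271 in wild-types 11 and 73, a log2 fold change of 0.31 ± 0.14 (limma adjusted p = 0.989). Ctnnb1, which encodes beta-catenin, had 8549 and 7964 in mutants 38 and 39, against 8548 and 7167 in wild-types 11 and 73, with overlapping groups. Gsk3b, the kinase that marks beta-catenin for destruction, had 5634 and 5797 in mutants 38 and 39, against 5436 and 4954 in wild-types 11 and 73, with a log2 fold change of 0.14 ± 0.10 (limma adjusted p = 0.989) that was 0.072 without wild-type 73.

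Of the 4 TCF/LEF genes, Tcf7l2 and Lef1 were high in a single library. Tcf7l2 had 253 read equivalents in mutant 38 and 67.2 in mutant 39, against 75.5 and 68.4 in wild-types 11 and 73. Lef1 had 191 in mutant 38 and 91.7 in mutant 39, against 87.9 and 100.5 in wild-types 11 and 73. Both genes are known to be strongly expressed in thalamic neurons. Of the 11 thalamus markers, 9, or 81.8%, were highest in mutant 38, against 26.5% of all genes. Calb2 and Lhx9 were highest in wild-type 73. This order was not particular to thalamus markers. Mutant 38 was also highest for 12 of 12 oligodendrocyte and 19 of 19 choroid plexus markers, and for 0 of 12 hippocampal neuron markers. The part of thalamic or other tissue in the Tcf7l2 and Lef1 values was not tested. Without mutant 38, the log2 fold changes were -0.095 for Tcf7l2 and -0.034 for Lef1, in place of 0.85 ± 0.55 and 0.49 ± 0.34. The other TCF/LEF genes had overlapping groups. Tcf7 had 21.5 and 18.8 in mutants 38 and 39, against 30.8 and 16.9 in wild-types 11 and 73, with wild-type 11 highest. Tcf7l1 had 31.7 and 16.0 in mutants 38 and 39, against 21.1 and 13.9 in wild-types 11 and 73, with mutant 38 highest and wild-type 11 next.

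The libraries rich and poor in choroid plexus markers were also set against each other. Of the 47 tested, 15 were higher in both mutant 38 and wild-type 11 than in both mutant 39 and wild-type 73, or 31.9%, against 20.6% of all genes. They were the ligands Wnt16, Wnt2b, Wnt5a, Wnt5b, Wnt8b and Wnt9a, the receptors Fzd4, Fzd5, Fzd6, Fzd7 and Fzd9, the co-receptors Lrp5 and Lrp6, the antagonist Sfrp5 and the planar polarity gene Celsr1. The count takes any margin: the nearest libraries of the 2 pairs differed 1.01-fold for Wnt2b, 1.05-fold for Wnt5a and 1.08-fold for Fzd9, and 6.81-fold for Sfrp5. The reverse order was found for 7 members, or 14.9%, against 20% of all genes. Mutant 38 was the highest library for 15 members, or 31.9%, against 26.5% of all genes. The 10 Frizzled genes had a median log2 difference of 0.50 between mutants 38 and 39 and of 0.25 between wild-types 11 and 73, where all genes had medians of 0.0012 and 0.0075. Sfrp5 lay among the choroid plexus markers, at 3.23 between the mutants and 2.43 between the wild-types on the log2 scale, while Fzd4 had 1.21 and 0.52 and Fzd7 had 1.10 and 0.76. Mutant 38 alone was high for Wnt9b and Vangl1, which had 2.50 and 1.27 between the mutants but -0.17 and -0.0022 between the wild-types. Meningeal and vessel wall markers, 8 of 11 of which had the same order as the choroid plexus markers, summed to 5227 in mutant 38 and 2143 in mutant 39, against 4779 in wild-type 11 and 3313 in wild-type 73, and none was at 0.

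**Figure D4:**
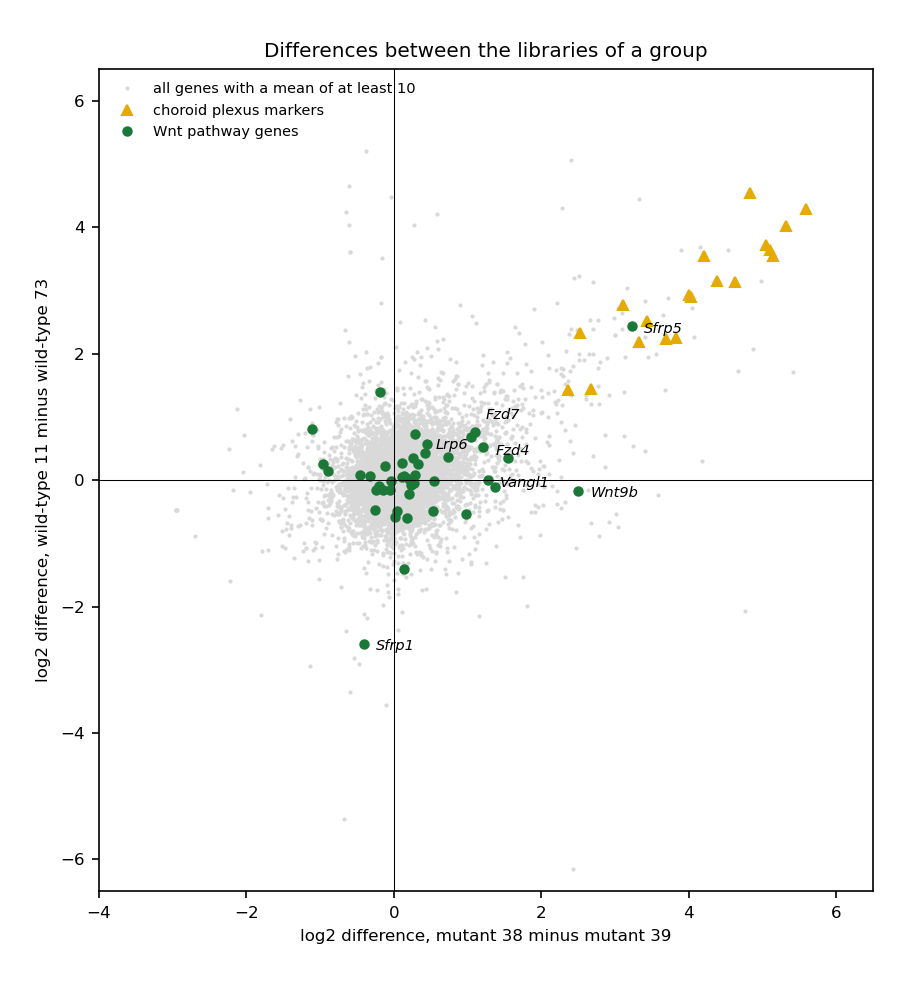
Each point is a gene, with the log2 difference between mutants 38 and 39 on the horizontal axis and between wild-types 11 and 73 on the vertical axis, for genes with a mean of at least 10 read equivalents. The 43 Wnt pathway genes plotted lie mostly near the centre, Sfrp5 (3.23 and 2.43) lies among the choroid plexus markers, and Sfrp1 (-0.41 and -2.59) and Wnt9b (2.50 and -0.17) differ in 1 group only.

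In the authors' deposited table, 1 of the 47 members had a p below 0.05, against 2.15% of all genes tested here. That member was Wnt3, with a p of 0.0116 in the authors' deposited table. Next in the authors' deposited table came Axin2 with a p of 0.0592 and Wnt7b with a p of 0.0757, for the transcript record used here. Whether these p-values were adjusted is not given in the sources used here, and they were made from the same 4 libraries as the values above.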

How the data were processed

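Ribosomal RNA was removed from total hippocampal RNA and strand-marked libraries were made and sequenced from a single end, per the labels' protocols. GSNAP and DESeq2 are named with build mm9, per the submitters' processing notes. Neither counter, strand setting nor annotation is given in the sources used here. The deposited signal is aligned bases per transcript divided by 1 factor per library: all values were whole multiples of a step, within 0.05, and low values piled up at 42 steps, so the authors counted bases and 1 read gave 42. The deposited p-value column is the authors' own.

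Each of the 31315 records was divided by 42, and a gene was represented by its record with the highest mean. The log2 of these values, after adding 1, was compared between groups by limma (version 3.58.1, R version 4.3.3; moderated two-sided test, variance trend) for the 18127 genes that reached 1 read equivalent in at least 2 libraries, with Benjamini-Hochberg adjustment over them at 0.05; this scale understates the change of low genes. Simulated data with known changes were used to test the procedure. The planted changes were larger than that of any tested member, and differences in tissue content were not simulated. The simulation therefore cannot tell how well changes of the members' size would be found. Transcript lengths and exon overlaps came from GENCODE M21 by accession or symbol (49 of 49 members), a later build than the files', and promoters from RefSeq. Python 3.11.15 was used otherwise.

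The members and lists were chosen with earlier results of these data known. Named in full are Axin2, Lrp6, Atp6ap2, the 3 members of each role with the smallest p, the most abundant member per kb of each role, the 8 other pathway genes with the smallest p, and Ctnnb1, Gsk3b, Tcf7l2 and Lef1. Other genes were named after their values were seen. The labels do not say that samples came from separate animals, and p-values therefore cover only the variation among these libraries. Reads are not independent molecules, and a listed 0 allows up to 3 of them.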

Additional observations from a re-analysis of the deposited data

How the results depend on the processing

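No paired analysis was possible because the groups share no replicate number. Under 15 alternatives (pseudocount, filter, scaling, variance prior, summed records, choroid plexus covariate, values in bases and each library left out), 0 of the tested Wnt members passed, except for 1, Sfrp1, without wild-type 11, where 37 of 17822 genes passed in all, against 1 of 18127 with all libraries. The count of members thus ran from 0 to 1 with 1 library left out; 0 other pathway genes passed under any of these alternatives. At an unadjusted limma p below 0.05 there were 2 members and 5 other pathway genes with all libraries. These were 4.26% and 5.21%, against 3.94% of all genes. Under the covariate they numbered 5 and 11. The share of all genes at that threshold was not taken under the covariate, so these counts are not a result about Wnt genes. The limma adjusted p of Axin2 ran from 0.486 to 1.00 and that of Wnt3 from 0.159 to 1.00. The covariate fit has 1 residual degree of freedom, and a group left with 1 library is assumed to vary like the other.

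Directions changed with single libraries, and the cause was not tested. With 1 library left out, log2 fold changes ran from -0.094 to 0.34 for Lrp6, -0.033 to 1.01 for Fzd5, -0.21 to 1.00 for Fzd4, -0.066 to 0.16 for Fzd3, -0.050 to 0.28 for Lrp5, -0.030 to 0.42 for Dkk3, -1.83 to 0.76 for Sfrp1, -0.21 to 0.017 for Dvl3, -0.17 to 0.039 for Dvl1, -0.49 to 0.78 for Vangl1, -0.11 to 0.050 for Celsr2, -0.051 to 0.20 for Ctnnb1, -0.095 to 1.80 for Tcf7l2 and -0.034 to 1.02 for Lef1. Pairs that were both high or both low in choroid plexus markers, chosen after seeing the data, also turned some signs. The high pair was not matched in level, with summed markers of 127929 in mutant 38 and 76844 in wild-type 11. The low pair had 8088 in mutant 39 and 7895 in wild-type 73. Between mutant 38 and wild-type 11 the log2 difference was -0.13 for Fzd3, -0.073 for Dkk3, 0.56 for Sfrp1 and 0.12 for Dvl3. Between mutant 39 and wild-type 73 it was -0.49 for Vangl1, -0.025 for Tcf7l2 and -0.13 for Lef1.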
